A study of Homo sapiens with 15 samples.

Results

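Basal and simple epithelial keratins were followed in MDA-MB-468 cells, an established human breast cancer cell line that carries very high EGFR. The members are 10 keratin genes (KRT5, KRT6A, KRT6B, KRT7, KRT8, KRT14, KRT16, KRT17, KRT18 and KRT19), chosen by symbol and matched to their Ensembl IDs among the 61552 genes of the counts table. RNA of 15 libraries was sequenced, with 3 replicates in each of 5 groups. In the drug experiment, cells were serum starved for 12 h and given EGF at 10 ng/mL alone (EGF), with 10 μM of cSNX1.3, a peptide that keeps EGFR from its nuclear route through Sorting Nexin 1 (cSNX1.3), or with 15 μM of erlotinib, an EGFR tyrosine kinase inhibitor (erlotinib), for 12 h. In the line experiment, both groups carried an IPTG-inducible shRNA against endogenous EGFR, were transfected with GFP-tagged EGFR that was wildtype (shEGFR-WT, here WT) or mutated in its nuclear localization signal (shEGFR-NLS, here ΔNLS), and received EGF; its dose and time are not given in the sources used here. Every group therefore received EGF, no untreated group or peptide control was analysed here, and both lines express EGFR from an introduced construct on a knockdown background.

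Keratins form the intermediate filaments of epithelial cells, and each filament is built from pairs of 1 type I and 1 type II chain. KRT5 and KRT14 are the pair of basal cells of stratified epithelia, and KRT8 and KRT18 the pair of simple and luminal epithelia, where KRT7 (type II) and KRT19 (type I) are also found. KRT6A and KRT6B (type II) with KRT16 and KRT17 (type I) are known as keratins of activated keratinocytes, as at a wound edge, and growth factor signaling through EGFR is among the stimuli known to raise them in skin. In breast tumors, KRT5, KRT14 and KRT17 are used as markers of the basal-like subtype. Bulk RNA holds a mean over cells, so fewer cells with a keratin and less of its RNA per cell cannot be told apart here.

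The genes lie in the 2 keratin clusters of the genome (GRCh38, GENCODE 44 annotation). On chromosome 12 are KRT7 (chr12:52232520-52252186, plus strand), KRT6B (chr12:52446651-52452146), KRT6A (chr12:52487176-52493257), KRT5 (chr12:52514575-52520530) and KRT8 (chr12:52897187-52949954), the last 4 on the minus strand, and KRT18 (chr12:52948871-52952906, plus strand), the 1 type I gene among them. On chromosome 17 are KRT19 (chr17:41523617-41528308), KRT14 (chr17:41582279-41586895), KRT16 (chr17:41609778-41615899) and KRT17 (chr17:41619442-41624842), all on the minus strand.

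Since KRT6A was called in ΔNLS vs. WT and KRT6B was not, the place where their coding sequences differ most is shown first, with that of KRT6C, the other near-identical copy. KRT6A and KRT6B shared 97.5% of 1692 coding bases, and the longest identical run was 269 bases. The stretches are 90 bases of exon 2 (coding bases 656 to 745) on the minus strand, at chr12:52491532-52491621 for KRT6A, chr12:52450416-52450505 for KRT6B and chr12:52472076-52472165 for KRT6C, and capitals mark bases that are not the same in all 3 genes.
KRT6A: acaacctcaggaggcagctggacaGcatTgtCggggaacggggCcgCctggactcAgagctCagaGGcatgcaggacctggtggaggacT
KRT6B: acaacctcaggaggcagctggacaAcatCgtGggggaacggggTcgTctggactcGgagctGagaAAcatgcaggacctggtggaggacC
KRT6C: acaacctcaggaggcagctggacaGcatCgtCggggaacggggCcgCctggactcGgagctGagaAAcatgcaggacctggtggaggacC
Here KRT6A and KRT6B differed at 10 bases, KRT6A and KRT6C at 6, and KRT6B and KRT6C at 4. Over the canonical transcripts, 18.2% of 100-base windows of KRT6A and 24.4% of those of KRT6B also occurred in a transcript of another gene. A read within such a window may fit more than 1 gene, unless the other read of its pair lies outside. These percentages are therefore not shares of reads that could not be assigned. KRT6C itself had 2 to 145 counts per library, or 0.279% to 1.06% of the KRT6A count.

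The type I chains KRT16, KRT14 and KRT17 are shown for the same reason, since KRT16 moved apart from its neighbors. KRT14 and KRT16 shared 88.7% of their aligned coding bases, KRT14 and KRT17 85.2%, and KRT16 and KRT17 80.9%. These are 90 bases of exon 5, all on the minus strand, at chr17:41610888-41610977 for KRT16, chr17:41583585-41583674 for KRT14 and chr17:41621000-41621089 for KRT17, with capitals as above.
KRT16: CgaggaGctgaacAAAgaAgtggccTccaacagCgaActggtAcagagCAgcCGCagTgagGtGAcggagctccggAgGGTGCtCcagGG
KRT14: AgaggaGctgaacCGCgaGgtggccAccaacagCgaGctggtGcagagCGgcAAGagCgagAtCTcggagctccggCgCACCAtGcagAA
KRT17: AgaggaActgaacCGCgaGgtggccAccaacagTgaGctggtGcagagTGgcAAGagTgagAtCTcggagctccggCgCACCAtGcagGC
KRT16 differed from KRT14 at 25 of these bases and from KRT17 at 26, while KRT14 and KRT17 differed at 6. Shared 100-base windows made up 7.12% of KRT16, 6.05% of KRT14 and 0.353% of KRT17. None were found for KRT7, KRT18 or KRT19. Counts of annotated KRT16 pseudogenes summed to between 0.62% and 13.8% of the KRT16 count, while for KRT8, KRT17, KRT18 and KRT19 pseudogenes this share was at most 0.686%. The KRT16 pseudogene sums themselves varied from 54 to 403 counts per library, and their part in the KRT16 folds was not tested. Counting took no account of strand. Read pairs within the 525 exonic bases that KRT8 and KRT18 share on opposite strands thus cannot be assigned to either. KRT7 and KRT17 likewise overlap antisense transcripts.

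Library totals ranged from 22915676 to 35900649 counts. Levels are CPM, counts divided by the library total as scaled by TMM over all 15 libraries, and folds with standard errors (SE) come from edgeR (quasi-likelihood test), whose p-values were adjusted over all tested genes by Benjamini and Hochberg's method. Where nothing says that replicates were separate cultures, these p-values measure only the spread between libraries. In each group 1 library was the highest for 10 of 10 members: EGF replicate 2, cSNX1.3 replicate 1, erlotinib replicate 1, WT replicate 2 and ΔNLS replicate 1. In each of the 5 groups that library also had the lowest TMM factor (0.92, 0.886, 1.03, 0.962 and 1.02), and without TMM scaling it remained the highest for 10 members in 4 groups and for 9 members in WT. The part of this in the results was not tested. The summed level of 6 epithelial markers was 1100 to 1370 CPM in every library. Single markers still differed: 2 of 6 were called higher in erlotinib vs. EGF (22.8% of all genes) and 2 of 6 lower in ΔNLS vs. WT (21% of all genes). Of the fibroblast markers, 5 of 6 were under 1 CPM in every library of each group, and their sum ranged from 8.41 to 21.5 CPM. Of the leukocyte markers, 4 or 5 of 6 were under 1 CPM per group, and their sum was 15.1 to 20.4 CPM in EGF, 11 to 14.6 in cSNX1.3, 41.4 to 44.9 in erlotinib, 26.3 to 37.6 in WT and 39.0 to 43.5 in ΔNLS. Most of this sum was the single gene CD14, with means of 16.1, 10.9, 40.3, 29.6 and 39.6 CPM in the same order. NCAM1 had means of 1.19, 1.26, 3.05, 0.498 and 1.33 CPM. Of the 2 leukocyte markers tested, 2 were called higher in erlotinib vs. EGF (22.8% of all genes) and 2 in ΔNLS vs. WT (20.4%). In cSNX1.3 vs. EGF, 1 was lower (2.69% of all genes) and 1 not called. PTPRC, CD3E and NKG7 were under 1 CPM in every library. The luminal breast markers ESR1, PGR, GATA3 and FOXA1 summed to 92.6 to 98.0 CPM in EGF, 83.7 to 90.7 in cSNX1.3 and 81.65 to 92.0 in erlotinib. Their sum was 148.6 to 158.2 CPM in WT and 103.7 to 105.2 in ΔNLS. Of the 3 tested in ΔNLS vs. WT, 2 were lower and 1 higher. In erlotinib vs. EGF 1 of 3 was lower, and in cSNX1.3 vs. EGF none was called. The part of these markers in the results was not tested.

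Together the 10 keratins took up 2.18% ± 0.238 (SD, n = 3) of all counts in EGF and 2.53% ± 0.200 in cSNX1.3. In erlotinib they took up 1.20% ± 0.102, in WT 2.34% ± 0.125 and in ΔNLS 1.56% ± 0.145. Compared per kilobase of union exon length, KRT19 was the highest in EGF at 2222 CPM per kb. KRT5 (1033), KRT8 (876), KRT17 (643), KRT18 (529) and KRT7 (529) followed, with ranges that overlapped between each of these neighbors. KRT6A (221) and KRT6B (180) overlapped each other and lay below KRT7. KRT16 and KRT14 (26.6) were the lowest, and neither overlapped its neighbor. The chain that pairs with KRT5 in basal cells was thus the lowest of the 10 in a cell line with high KRT5. With the length of the canonical transcript in place of the union of exons, which for KRT8 is 1784 instead of 6881 bases, KRT8 reached 3378 CPM per kb in EGF, between KRT19 (3734) and KRT5 (1907).

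**Figure D1:**
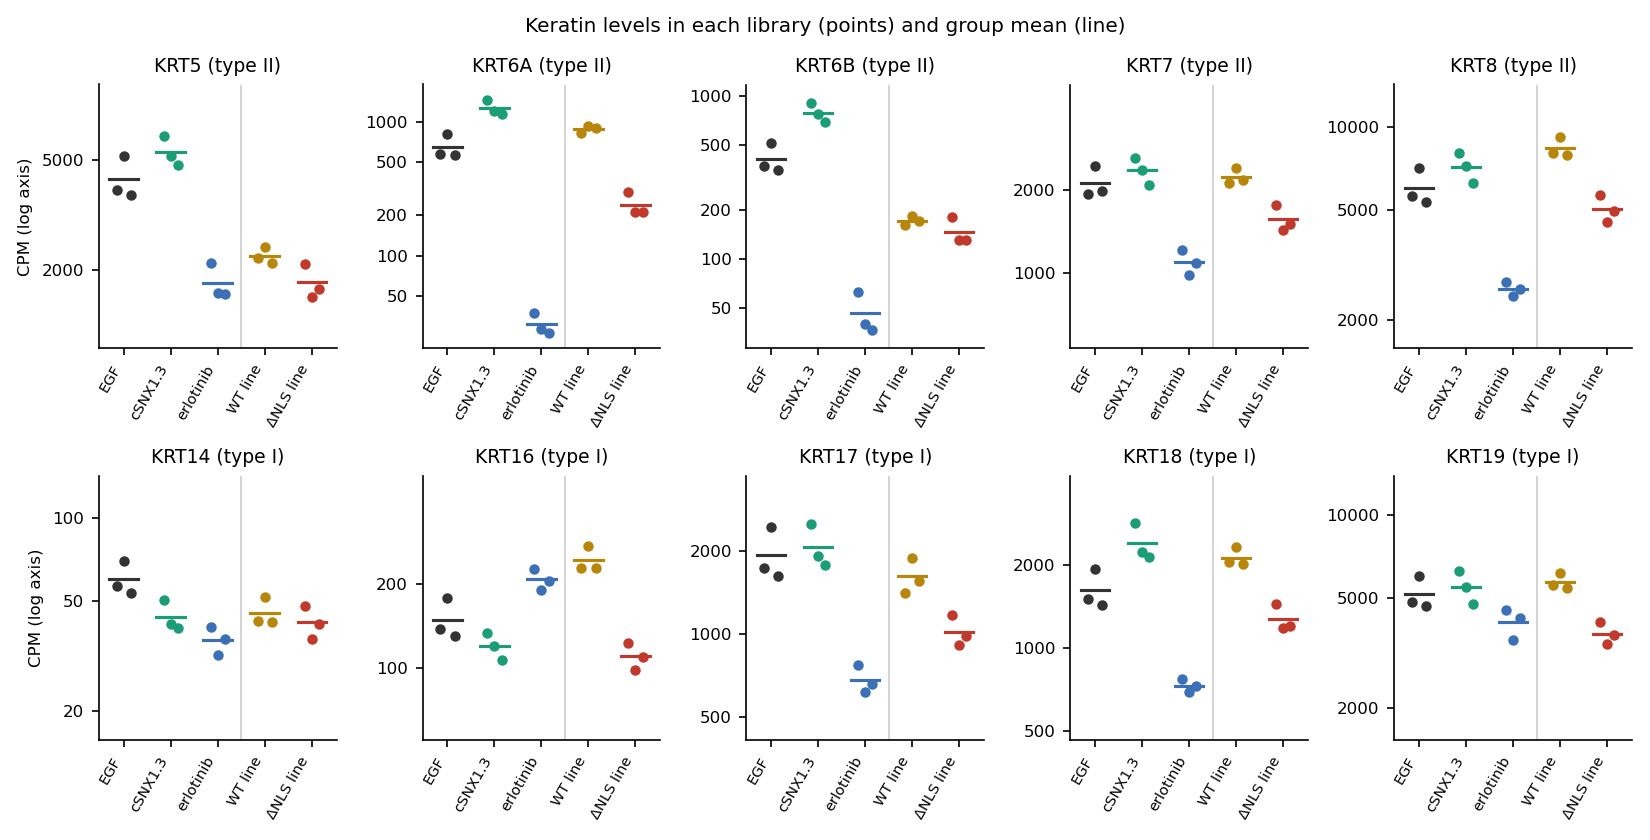
CPM of each of the 10 keratins in the 15 libraries (points, log axis) with the mean of each group (line); the grey line separates the drug experiment from the line experiment. KRT6A and KRT6B in erlotinib lie far below every other library, whereas KRT16 is higher in erlotinib than in EGF.

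Erlotinib vs. EGF asks how the keratins respond when the EGFR kinase is inhibited under EGF. Of the 10 members, 8 were lower in erlotinib, 1 was higher (KRT16) and 1 was not called (KRT19). Over all 15738 genes tested, 21.2% were called lower and 22.8% higher. The median log2 fold change of the members was -1.17, and that of all genes 0.008. The wound-edge type II keratins KRT6A and KRT6B fell the furthest. Of the type I chains known with them, KRT16 rose and KRT17 fell.

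KRT6A had 576, 805 and 562 CPM in the EGF libraries and 37.6, 28.3 and 26.7 CPM in the erlotinib libraries. The groups were far apart, and the log2 fold change was -4.38 ± 0.17 (SE; edgeR adjusted p = 4.13e-11), the largest of the members. KRT6B had 374, 519 and 352 CPM in EGF and 62.5, 40.1 and 36.8 CPM in erlotinib. Its log2 fold change was -3.14 ± 0.20 (edgeR adjusted p = 1.07e-07), again with no overlap. The sum of KRT6A, KRT6B and KRT6C was 1065 ± 228 CPM (SD, n = 3) in EGF and 77.5 ± 19.9 CPM in erlotinib. This sum does not change when a read is placed at another of the copies. How reads that fit several copies were counted is not given in the sources used here, so the sum may still depend on them.

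KRT16, a type I chain of the same activated state, had 137, 178 and 131 CPM in EGF and 228, 191 and 206 CPM in erlotinib. All 3 erlotinib libraries were above the highest EGF library, and the log2 fold change was 0.50 ± 0.11 (edgeR adjusted p = 0.00241). KRT17, which joins KRT6 chains in activated and basal-like cells, went the other way, with 1731, 2429 and 1620 CPM in EGF and 771, 616 and 658 CPM in erlotinib (log2 fold change -1.49 ± 0.16, edgeR adjusted p = 1.76e-06).

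The simple pair fell together. KRT8 had 5624, 7090 and 5363 CPM in EGF and 2744, 2459 and 2591 CPM in erlotinib, a log2 fold change of -1.20 ± 0.13 (edgeR adjusted p = 2.44e-06). KRT18 had 1509, 1937 and 1428 CPM in EGF and 776, 692 and 727 CPM in erlotinib, a log2 fold change of -1.14 ± 0.13 (edgeR adjusted p = 4.21e-06). Neither overlapped between groups. KRT7 fell from 2117 ± 280 to 1096 ± 115 CPM (SD, n = 3; log2 fold change -0.94 ± 0.12, edgeR adjusted p = 1.71e-05). KRT19 had 4859, 6034 and 4679 CPM in EGF and 4545, 3532 and 4264 CPM in erlotinib. The groups did not overlap, but its log2 fold change of -0.32 ± 0.14 did not pass the threshold (edgeR adjusted p = 0.0647). DESeq2 called it (adjusted p = 0.0282), as did edgeR with all 15 libraries in the fit (0.0359) or with no filter on low counts (0.0141). Over the 15 alternatives, its adjusted p ran from 0.0141 to 0.263.

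Of the basal pair, KRT5 had 3901, 5156 and 3748 CPM in EGF and 2113, 1646 and 1640 CPM in erlotinib (log2 fold change -1.23 ± 0.14, edgeR adjusted p = 5.26e-06). KRT14 was low throughout, with 56.4, 69.9 and 53.6 CPM in EGF and 40.1, 31.9 and 36.4 CPM in erlotinib (log2 fold change -0.72 ± 0.12, edgeR adjusted p = 0.000148). Both fell without overlap.

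cSNX1.3 vs. EGF asks the same question for the peptide, against the same EGF libraries. Of the 10 members, 3 were higher (KRT6A, KRT6B and KRT18), 1 was lower (KRT14) and 6 were not called. Over all genes tested, 3.38% were called higher and 2.69% lower. The median log2 fold change of the members was 0.21, and that of all genes 0.002. Both wound-edge type II keratins rose by nearly the same amount, and the 2 basal partners KRT5 and KRT14 had log2 fold changes of opposite sign, of which that of KRT14 was called.

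KRT6A had 1456, 1211 and 1134 CPM in cSNX1.3, each above the highest EGF library (805 CPM). Its log2 fold change was 0.97 ± 0.15 (edgeR adjusted p = 6e-04), and it was called under each of the 15 alternatives. KRT6B had 911, 777 and 697 CPM in cSNX1.3 (log2 fold change 0.94 ± 0.19, edgeR adjusted p = 0.00893). It too lay above every EGF library, but without EGF replicate 1 the call was lost (adjusted p = 0.0546). The sum of KRT6A, KRT6B and KRT6C was 2067 ± 276 CPM (SD, n = 3), against 1065 ± 228 CPM in EGF.

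KRT18 had 2832, 2226 and 2137 CPM in cSNX1.3 and rose with a log2 fold change of 0.57 ± 0.13 (edgeR adjusted p = 0.0138). The groups did not overlap, but the call was lost without EGF replicate 1 (adjusted p = 0.0829) or EGF replicate 3 (0.0807). Its partner KRT8 had 8097, 7230 and 6255 CPM, overlapping EGF, with a log2 fold change of 0.26 ± 0.13 (edgeR adjusted p = 0.289). KRT14 had 50.3, 41.3 and 39.9 CPM in cSNX1.3, each below the lowest EGF library (53.6 CPM). Its log2 fold change was -0.45 ± 0.12 (edgeR adjusted p = 0.0298). Leaving out EGF replicate 1 (adjusted p = 0.0582), EGF replicate 2 (0.107), cSNX1.3 replicate 2 (0.125) or cSNX1.3 replicate 3 (0.122) ended this call. KRT5 had 6111, 5157 and 4816 CPM, overlapping EGF through EGF replicate 2, and a log2 fold change of 0.33 ± 0.14 (edgeR adjusted p = 0.202). Without that library it was called (adjusted p = 0.0423).

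The remaining members overlapped between cSNX1.3 and EGF. KRT16 had 134, 120 and 107 CPM in cSNX1.3 and a log2 fold change of -0.31 ± 0.12 (edgeR adjusted p = 0.141). KRT7, KRT17 and KRT19 had log2 fold changes of 0.16, 0.10 and 0.09. The signs of KRT17 and KRT19 turned when 1 library was left out, so they give no direction. EGFR itself had 6143 ± 372 CPM (SD, n = 3) in cSNX1.3, 4733 ± 360 CPM in EGF and 4708 ± 246 CPM in erlotinib, and was not called in either comparison with EGF (edgeR adjusted p = 0.0622 and 0.995).

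**Figure D2:**
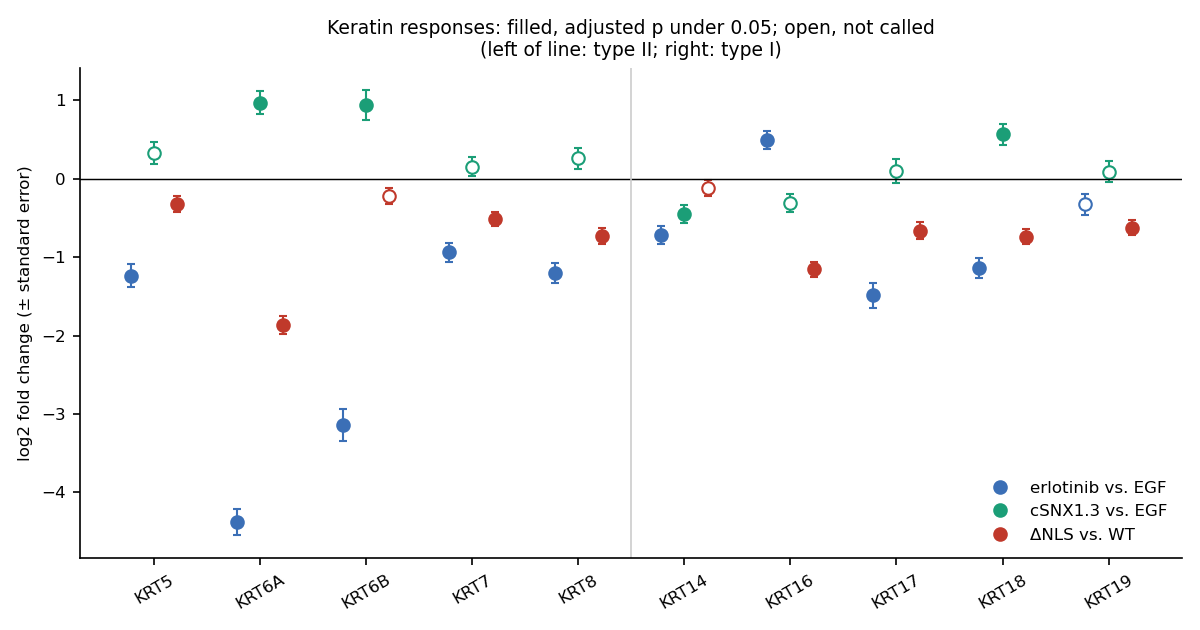
Log2 fold change of each keratin with its standard error in erlotinib vs. EGF (blue), cSNX1.3 vs. EGF (green) and ΔNLS vs. WT (red); filled circles have an adjusted p under 0.05. KRT6A spans the widest range, from -4.38 in erlotinib to 0.97 in cSNX1.3, and KRT16 is the member higher in erlotinib and lower in ΔNLS.

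Since both drug comparisons use the same EGF libraries, the agents were also compared with each other. In cSNX1.3 vs. erlotinib, 8 of 10 members were higher in cSNX1.3, KRT16 was lower and KRT14 was not called, where 27.6% of all genes were higher and 28.5% lower. KRT6A was 40.8-fold higher in cSNX1.3 (log2 difference 5.35 ± 0.18, edgeR adjusted p = 3.06e-12). KRT6B was 17-fold higher (log2 difference 4.09 ± 0.21, edgeR adjusted p = 5.64e-09). KRT5, KRT7, KRT8, KRT17 and KRT18 were higher by log2 differences of 1.57, 1.09, 1.46, 1.59 and 1.71. KRT16 was lower by a log2 difference of -0.80 ± 0.12 (edgeR adjusted p = 2.36e-05). KRT19 was higher by 0.42 ± 0.14 on the log2 scale (edgeR adjusted p = 0.0162). That call was lost without cSNX1.3 replicate 1 (adjusted p = 0.0523), without erlotinib replicate 2 (0.0982) and without TMM scaling (0.0516). For KRT14 the log2 difference was 0.27 ± 0.12 (edgeR adjusted p = 0.0648), and it passed without cSNX1.3 replicate 3 (0.0426), without erlotinib replicate 1 (0.0366) or with no filter on low counts (0.0477).

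ΔNLS vs. WT asks how the keratins differ between the lines with EGFR mutated in its nuclear localization signal and with wildtype EGFR. No source used here says that several lines were made per construct, so other differences between the lines cannot be told apart from the mutation. The p-values do not measure the spread between lines. Of the 10 members, 8 were lower in ΔNLS and KRT6B and KRT14 were not called. Over the 15805 genes tested, 21% were called lower and 20.4% higher. The median log2 fold change of the members was -0.64, and that of all genes 0.006. EGFR counts, which cannot be split into endogenous and introduced EGFR, were 1727 ± 33.7 CPM (SD, n = 3) in ΔNLS and 1340 ± 168 CPM in WT (log2 fold change 0.37 ± 0.09, edgeR adjusted p = 0.00367). The part of this difference in the keratin values was not tested.

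KRT6A had 819, 928 and 900 CPM in WT and 298, 213 and 213 CPM in ΔNLS, a log2 fold change of -1.87 ± 0.11 (edgeR adjusted p = 7.81e-09) with no overlap. KRT6B had 162, 183 and 170 CPM in WT and 181, 131 and 130 CPM in ΔNLS, where ΔNLS replicate 1 lay within the WT range and the other 2 below it. Its log2 fold change was -0.22 ± 0.11 (edgeR adjusted p = 0.122), and without ΔNLS replicate 1 it was -0.39 and called (adjusted p = 0.00123). The sum of KRT6A, KRT6B and KRT6C was 1057 ± 66.5 CPM (SD, n = 3) in WT and 390 ± 78.5 CPM in ΔNLS.

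KRT16 had 229, 276 and 230 CPM in WT and 122, 98.0 and 109 CPM in ΔNLS. It fell by 1.16 on the log2 scale (SE 0.09, edgeR adjusted p = 4.62e-08), the second furthest of the members. KRT17 fell by 0.66 (SE 0.11, edgeR adjusted p = 0.000138), from 1407, 1876 and 1556 CPM to 1169, 907 and 980 CPM. Neither overlapped between the lines.

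KRT8 and KRT18 fell together again, by 0.73 and 0.74 on the log2 scale (SE 0.10 and 0.09, edgeR adjusted p = 2.31e-05 and 8.98e-06). KRT8 had 8097, 9205 and 7919 CPM in WT and 5682, 4524 and 4966 CPM in ΔNLS. KRT18 had 2056, 2321 and 2010 CPM in WT and 1443, 1185 and 1203 CPM in ΔNLS. KRT19, not called in either drug comparison with EGF, had 5576, 6208 and 5438 CPM in WT and 4097, 3411 and 3691 CPM in ΔNLS, and fell by 0.62 (SE 0.09, edgeR adjusted p = 5.6e-05). KRT7 fell by 0.51 (SE 0.09, edgeR adjusted p = 0.000298). For these 4 simple keratins the lines did not overlap.

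KRT5 had 2207, 2418 and 2129 CPM in WT and 2100, 1602 and 1708 CPM in ΔNLS. It fell by 0.32 (SE 0.10, edgeR adjusted p = 0.0154), with ΔNLS replicate 1 just under the lowest WT library. The call was lost without ΔNLS replicate 2 (adjusted p = 0.0846), without ΔNLS replicate 3 (0.0905) and with all 15 libraries in the fit (0.0796). KRT14 had 42.3, 51.9 and 42.0 CPM in WT and 48.1, 36.4 and 41.3 CPM in ΔNLS, which overlapped, with a log2 fold change of -0.11 ± 0.10 (edgeR adjusted p = 0.404).

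The effects of ΔNLS and of cSNX1.3, both intended to keep EGFR out of the nucleus, were compared in a fit of all 15 libraries. For 9 of 10 members the log2 fold change in ΔNLS vs. WT was lower than that in cSNX1.3 vs. EGF, where 11.8% of 16524 genes were lower and 11.3% higher. The difference was -2.84 ± 0.22 for KRT6A (edgeR adjusted p = 1.86e-08), -1.30 ± 0.18 for KRT18 (1.08e-05) and -0.99 ± 0.18 for KRT8 (0.000276). KRT14 had a difference of 0.34 ± 0.18 (edgeR adjusted p = 0.184). The experiments differ in the line, the EGFR level and the treatment, which cannot be told apart from the way EGFR was kept from the nucleus.

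In the order of mean levels over the 5 groups, erlotinib was the lowest for 8 of the members, and ΔNLS was the lowest for KRT16 and KRT19. The ΔNLS range overlapped that of cSNX1.3 for KRT16 and that of erlotinib for KRT19. KRT5 was lower in both lines (2251 ± 150 CPM in WT, SD, n = 3) than in EGF, and the KRT5 ranges of ΔNLS and erlotinib overlapped. KRT6B was likewise lower in WT (172 ± 10.4 CPM) than in EGF (415 ± 91.0 CPM), whereas KRT6A was higher in WT (882 ± 56.3 CPM) than in EGF (648 ± 136 CPM). For KRT7, KRT8 and KRT19 the ranges of cSNX1.3, WT and EGF overlapped from each neighbor to the next. KRT14 was the highest in EGF, and its ranges in WT, cSNX1.3, ΔNLS and erlotinib each overlapped the next. Experiment and line cannot be told apart in these comparisons between the drug groups and the lines, and they were not tested.

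Ratios between partner chains are given per kilobase of union exon length, as descriptions with no test. The type II share of the summed level was 44.9% ± 0.261 (SD, n = 3) in EGF and 48.8% ± 0.528 in cSNX1.3. It was 32.5% ± 1.31 in erlotinib, 41.5% ± 0.296 in WT and 41.4% ± 0.646 in ΔNLS. Thus the share was lower in erlotinib than in any library of the other groups, while the lines overlapped although their summed level differed (6509 ± 508 CPM per kb in WT and 4127 ± 463 in ΔNLS). With canonical transcript lengths the shares were 52.9%, 55.2%, 42.2%, 52.3% and 52.3% in the same order.

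The ratio of KRT8 to KRT18 was 1.66 ± 0.0215 in EGF, 1.58 ± 0.00578 in erlotinib, 1.76 ± 0.00676 in WT and 1.77 ± 0.0699 in ΔNLS (SD, n = 3). In cSNX1.3, where KRT18 rose, it was lower, with 1.28, 1.45 and 1.31 in the 3 libraries. The ratio of KRT5 to KRT14 was 37.7, 40.3 and 38.2 in EGF and 66.3, 68.2 and 65.9 in cSNX1.3. In erlotinib it was 28.8, 28.1 and 24.6. The cSNX1.3 libraries were thus the highest in this ratio and lay apart from every other library.

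The ratio of KRT6A to KRT6B was 1.21, 1.22 and 1.26 in EGF and 1.26, 1.23 and 1.28 in cSNX1.3, where both genes rose. In erlotinib it was 0.473, 0.555 and 0.570. In WT it was 3.97, 3.99 and 4.15, and in ΔNLS 1.29, 1.28 and 1.29. So KRT6A exceeded KRT6B by far in WT, and ΔNLS lay close to EGF and cSNX1.3. The ratio of KRT6A plus KRT6B to KRT16 was 6.66 ± 0.261 in EGF, 16.1 ± 0.498 in cSNX1.3 and 0.363 ± 0.0672 in erlotinib (SD, n = 3), and 3.82 ± 0.277 and 3.29 ± 0.363 in WT and ΔNLS, which overlapped. In erlotinib, KRT16 therefore outnumbered its KRT6 partners per kilobase, and in the other groups it did not.

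**Figure D3:**
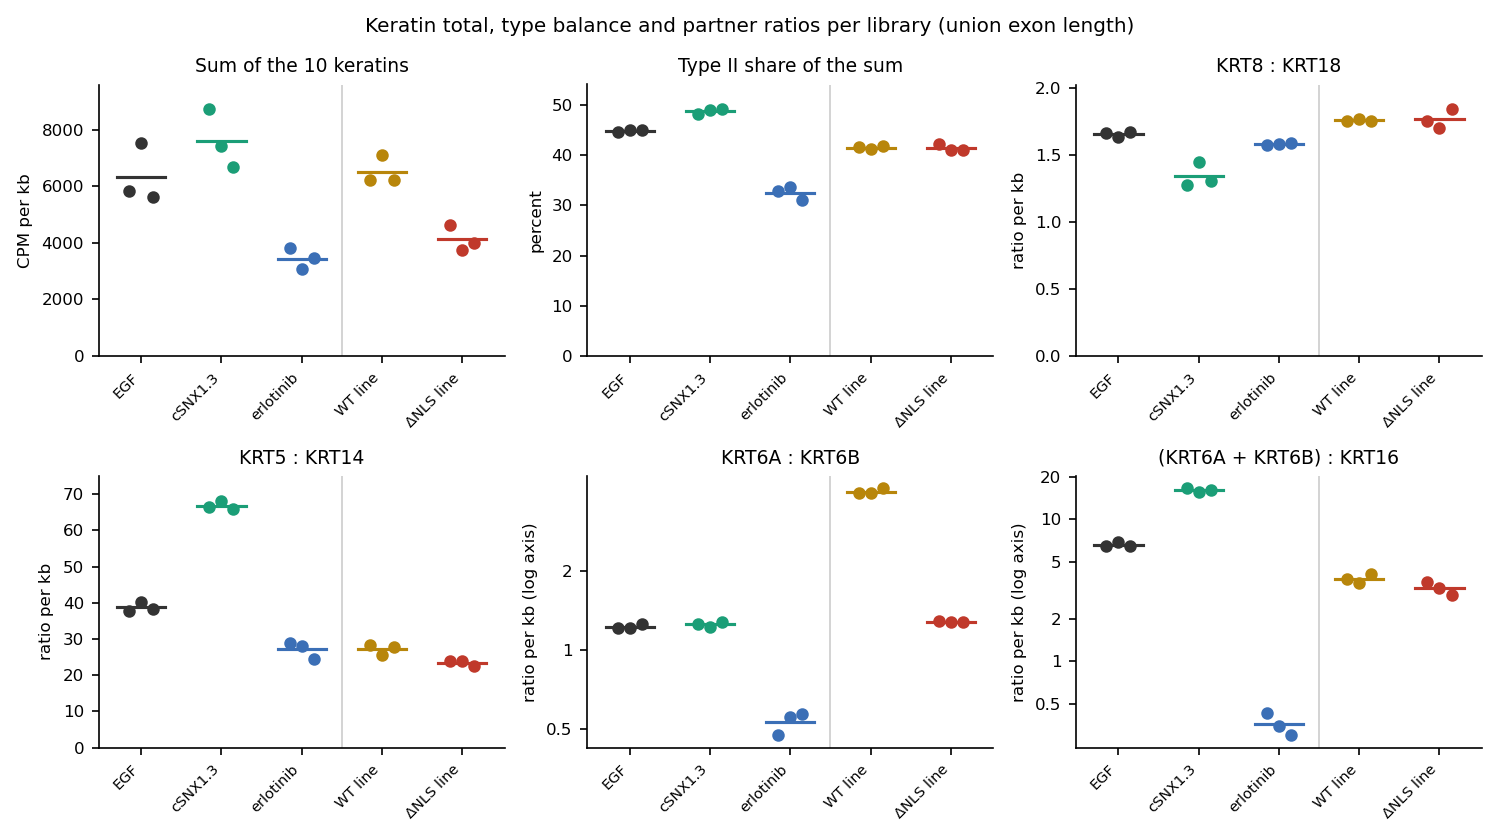
Summed level of the 10 keratins, type II share and 4 partner ratios in each library (points) with group means (lines), per kilobase of union exon length; the 2 lower right panels have log axes. KRT6A : KRT6B sits near 4 in the WT line and between 1.21 and 1.29 in EGF, cSNX1.3 and ΔNLS, and (KRT6A + KRT6B) : KRT16 is under 1 in erlotinib.

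Of 45 other keratin genes, 19 were tested in the drug experiment and 20 in the lines. Over all tested genes, 22.8% were called higher and 21.2% lower in erlotinib vs. EGF. In cSNX1.3 vs. EGF these shares were 3.38% and 2.69%, and in ΔNLS vs. WT 20.4% and 21%. In erlotinib vs. EGF, 12 of 19 were lower and 3 higher (median log2 fold change -1.66). KRT75, next to KRT6B, had a log2 fold change of -3.58 ± 0.23 (edgeR adjusted p = 6.97e-09) and KRT6C of -3.53 ± 0.30 (1.99e-07), while KRT15, a type I keratin of basal cells beside KRT19, rose by 0.58 ± 0.09 (0.000131). KRT6C had only 2 to 9 counts in the erlotinib libraries. Of its 100-base windows, 31.4% also occur in other transcripts, so its folds may in part come from reads of KRT6A or KRT6B, which was not tested. In cSNX1.3 vs. EGF, 3 of 19 were higher, including KRT6C (log2 fold change 1.01 ± 0.20, edgeR adjusted p = 0.00611) and KRT13 (0.94 ± 0.23, 0.0252), and KRT79 was lower (-1.13 ± 0.17, 0.000622). In ΔNLS vs. WT, 15 of 20 were lower and 1 higher (median log2 fold change -0.98). KRT13, a type I keratin of mucosal epithelia, had 239 ± 46.7 CPM in WT and 29.5 ± 5.68 CPM in ΔNLS (SD, n = 3; log2 fold change -3.02 ± 0.17, edgeR adjusted p = 5.48e-07). KRT75 was the gene that was higher, at 2.31 ± 0.356 CPM in ΔNLS and 0.980 ± 0.334 CPM in WT (log2 fold change 1.22 ± 0.25, edgeR adjusted p = 0.000841).

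**Figure D4:**
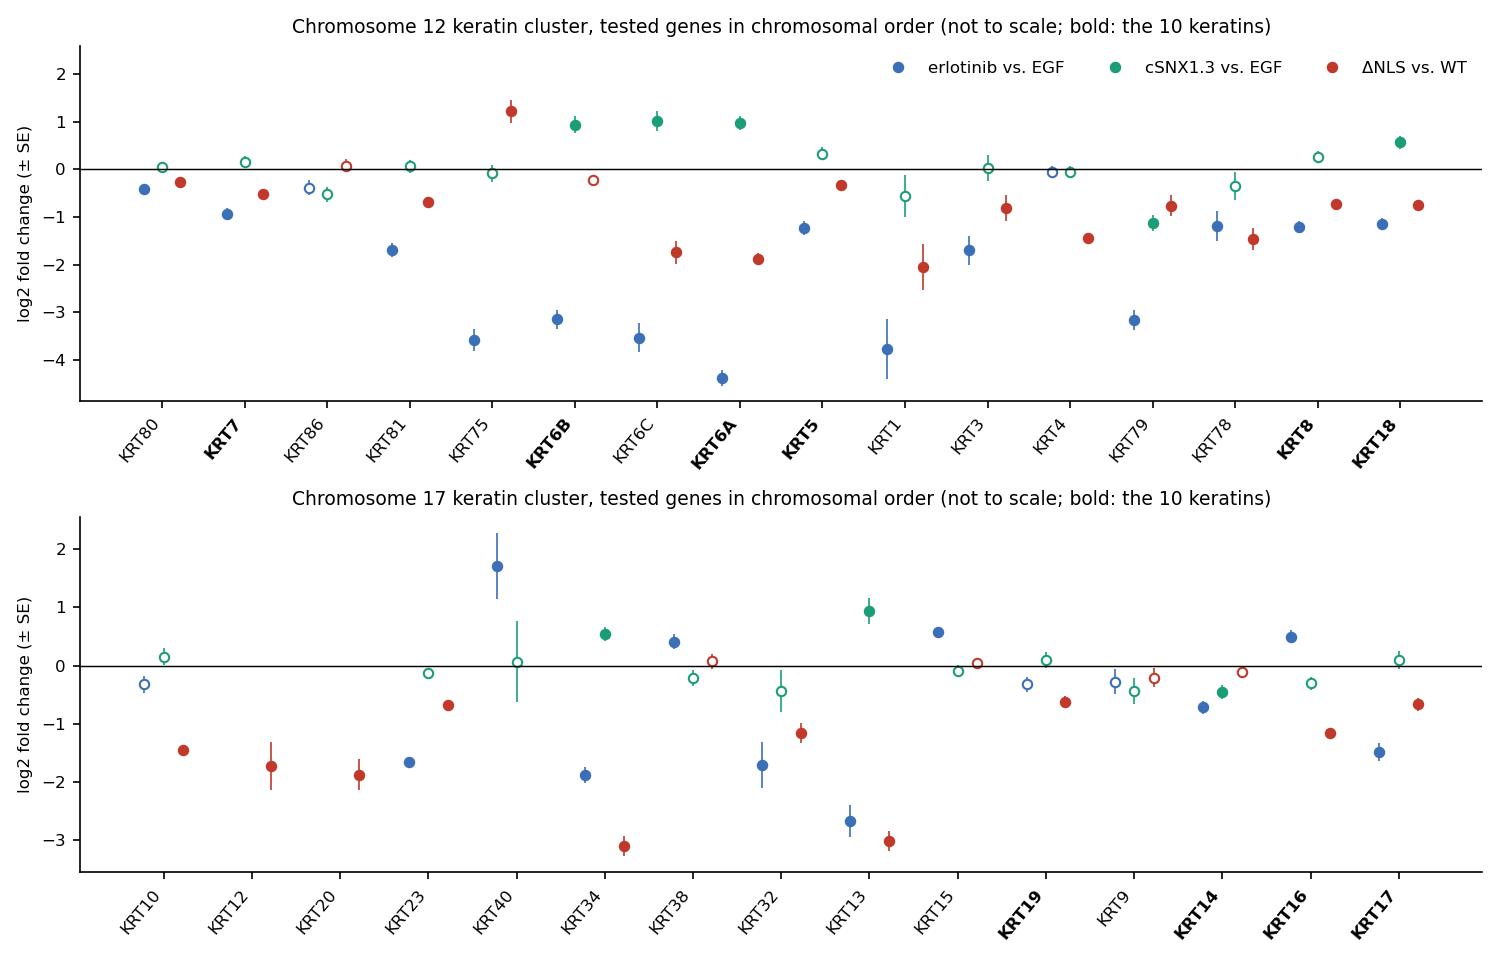
Log2 fold change with standard error of every tested keratin of the chromosome 12 and chromosome 17 clusters, in chromosomal order and not to scale, with colors and fill as for the member responses; names of the 10 members are bold. In erlotinib KRT16 is higher and its neighbors KRT14 and KRT17 are lower, and in ΔNLS KRT75 is higher while KRT6A and KRT6C are lower and KRT6B is not called.

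Other intermediate filament genes, most of them not epithelial, were also counted. In ΔNLS vs. WT, 8 of 10 tested were higher and 1 lower (median log2 fold change 0.74), against 20.4% and 21% of all genes. In erlotinib vs. EGF, 8 of 9 were lower and 1 higher, against 21.2% and 22.8% of all genes. VIM, the mesenchymal filament vimentin, had 45.9 ± 5.41 CPM in ΔNLS and 18.7 ± 1.40 CPM in WT (SD, n = 3; log2 fold change 1.29 ± 0.10, edgeR adjusted p = 2.27e-08). It was lower in erlotinib (-1.68 ± 0.10, edgeR adjusted p = 5.48e-09) and higher in cSNX1.3 (0.68 ± 0.10, 0.000387). In cSNX1.3 vs. EGF, 1 of 9 was higher and 1 lower (BFSP1), against 3.38% and 2.69% of all genes.

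Genes that anchor keratins at desmosomes and hemidesmosomes were called in both directions in erlotinib and in ΔNLS, and only higher in cSNX1.3. In erlotinib vs. EGF, 6 of 20 were higher and 8 lower, where 22.8% of all genes were higher and 21.2% lower. DSC3, a desmosomal cadherin, rose by 1.20 ± 0.10 on the log2 scale (edgeR adjusted p = 1.87e-07), and ITGA6, the integrin chain of hemidesmosomes, fell by 0.69 (SE 0.10, 4.73e-05). In cSNX1.3 vs. EGF, 6 of 20 were higher and 14 were not called, where 3.38% of all genes were higher and 2.69% lower. ITGB4, the other integrin chain of hemidesmosomes, was among those higher (log2 fold change 0.77 ± 0.10, edgeR adjusted p = 0.000266). In ΔNLS vs. WT, 3 of 19 were higher and 9 lower, where 20.4% of all genes were higher and 21% lower. The desmosomal PERP had a log2 fold change of -0.98 ± 0.08 there (edgeR adjusted p = 1.01e-07).

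Of 25 epithelial transcription factor genes, 9 were higher and 4 lower in erlotinib, 1 higher and 3 lower in cSNX1.3, and 5 higher and 12 lower in ΔNLS. Over all genes, 22.8% were higher and 21.2% lower in erlotinib, 3.38% and 2.69% in cSNX1.3, and 20.4% and 21% in ΔNLS. GRHL3 and ZNF750, regulators of epidermal differentiation, rose in erlotinib (log2 fold change 1.64 ± 0.16 and 1.12 ± 0.12, edgeR adjusted p = 6.34e-07 and 2.28e-06). Both fell in cSNX1.3 (-1.46 ± 0.20 and -1.0 ± 0.13, edgeR adjusted p = 0.000219 and 0.000187). Mean levels of GRHL3 were 2.97 CPM in EGF, 1.08 in cSNX1.3 (24 to 30 counts per library) and 9.22 in erlotinib. In ΔNLS, TP63, the master regulator of basal keratinocytes, had a log2 fold change of -1.10 ± 0.15 (edgeR adjusted p = 1.87e-05) and KLF5 of -0.87 ± 0.07 (3.69e-08). TP63 was low, with means of 8.35 CPM in WT and 3.91 CPM in ΔNLS, and under 1 CPM in every drug library. Of 10 genes read as output of the ERK pathway, 10 were lower in erlotinib, 3 were higher and 7 not called in cSNX1.3, and 3 were higher and 3 lower in ΔNLS. DUSP6, a phosphatase induced by ERK, had 12.8 ± 0.902 CPM in EGF and 0.416 ± 0.173 CPM in erlotinib (SD, n = 3).

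Over the 15 libraries, the member nearest to KRT8 was KRT18 and the reverse, with a root mean square difference of 0.152 between their centred log2 CPM. Outside the keratins, ITGB5 was nearer to KRT8 (0.123) and NIBAN2 nearer to KRT18 (0.139). Of 13369 genes outside the keratins, the nearest to KRT19 was SPINT2 (0.067) and to KRT7 RHOC (0.0897). In absolute distance KRT6A had no gene as close, its nearest being F3 at 0.562, and that of KRT6B was CXCL8 at 0.344. Such distances grow with the spread of the member itself, so they do not rank how closely members are followed. The SD of log2 CPM over the libraries was 1.93 for KRT6A and 1.42 for KRT6B. It was 0.281 for KRT19 and 0.278 for KRT14. For KRT5, KRT8, KRT14, KRT16, KRT17 and KRT18 the nearest genes were LIPE, ITGB5, ADORA2B, VSIR, TUBB2A and NIBAN2, at 0.123 to 0.163. These distances are descriptions over libraries that share groups.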

How the data were processed

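PolyA RNA of 15 libraries was analysed, grouped by the sample titles. The authors trimmed reads (TrimGalore), aligned them with STAR to the GRCh38 genome and ran featureCounts on read pairs, ignoring strand. What they deposited are unnormalized counts for each Ensembl gene, checked to be whole numbers whose totals differ between libraries; the annotation release is not given in the sources used here. Of 61552 IDs, 61399 matched GENCODE 44 and 153 did not.

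The counts were fitted in edgeR 4.0.16 under R 4.3.3 (TMM, filterByExpr by group, robust quasi-likelihood fit, Benjamini-Hochberg adjustment over all genes, threshold 0.05), which was tested on simulated data. The 9 drug libraries and the 6 line libraries were fitted separately, and the difference between the ΔNLS and cSNX1.3 effects in all 15. DESeq2 1.42.0 was an alternative. Sequences come from the GENCODE 44 transcripts. The members and lists were chosen with earlier results of these data known. Named were the members, EGFR and, per list and comparison, up to the 2 largest rises and 2 largest falls among genes that were called, averaged 1 CPM or more in the groups compared and did not overlap between groups. For each member the nearest gene outside the keratins over the libraries was also named, with 0.5 CPM added before the logarithm. Alternatives were other scalings, filters, a threshold of 0.01, other samples in the fit, a replicate block and leaving out each library.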

Additional observations from a re-analysis of the deposited data

Results flagged for a closer look

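For 9 keratins the log2 fold change in ΔNLS vs. WT differed from that in cSNX1.3 vs. EGF, by edgeR's interaction term over all 15 libraries at a Benjamini-Hochberg adjusted p under 0.05. The difference (ΔNLS effect minus cSNX1.3 effect) was -2.84 for KRT6A, -1.3 for KRT18 and -1.16 for KRT6B. It was -0.99 for KRT8, -0.84 for KRT16 and -0.76 for KRT17. It was -0.71 for KRT19, -0.66 for KRT7 and -0.65 for KRT5. The KRT5 difference was no longer called without EGF replicate 1 or 3 or ΔNLS replicate 2 or 3 (adjusted p up to 0.0592), nor that of KRT17 without EGF replicate 1, WT replicate 2 or ΔNLS replicate 2 (up to 0.0514).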

How the results depend on the processing

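In erlotinib vs. EGF, 147 of 150 member values under 15 alternatives kept their direction and side of the threshold, and in ΔNLS vs. WT 134 of 140. In cSNX1.3 vs. EGF this held for 134 of 150, in cSNX1.3 vs. erlotinib for 143 of 150 and for the difference between ΔNLS and cSNX1.3 effects for 180 of 190. In cSNX1.3 vs. EGF, leaving out 1 library gave 1 to 4 members called higher and 0 to 1 called lower, and the members called lower were 2 with library totals only or with no filter (KRT16 was added, adjusted p = 0.0336 and 0.0408) and 0 at an adjusted p under 0.01. The log2 fold change of KRT17 ranged from -0.059 to 0.288 when 1 library was left out, being negative without EGF replicate 3 (-0.003) or cSNX1.3 replicate 1 (-0.059). That of KRT19 ranged from -0.004 (cSNX1.3 replicate 1 left out) to 0.202. With library totals only, 1 member (KRT14) had a higher effect in ΔNLS than in cSNX1.3 (adjusted p = 0.0262). That scaling moved the median log2 fold change of all genes from 0.008 to 0.115 in erlotinib vs. EGF, from -0.015 to -0.182 in cSNX1.3 vs. erlotinib and from 0.023 to 0.15 for the difference of effects. It moved the share of calls that were higher from 51.8% to 65.5%, from 49.1% to 33.3% and from 49% to 66.4% there, from 55.6% to 39.8% in cSNX1.3 vs. EGF and from 49.3% to 61% in ΔNLS vs. WT. The cause of these changes was not tested. Libraries with the same replicate number did not deviate together in a regular way (correlations of -0.346 to 0.38). With 3 libraries per group this cannot show whether they shared a culture or batch. A replicate block changed no member call (8 lower and 1 higher in erlotinib, 1 lower and 3 higher in cSNX1.3, 8 lower in ΔNLS vs. WT). With 3 libraries per group, smaller differences can be missed.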
